A study of Mus musculus with 8 samples.

Results

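Leukocytes from B16-OVA tumors 5 days after adoptive cell transfer (ACT) were compared between mice that received PD1d/IL-2v/IL-33-secreting OT1 cells, called orthogonal ACT, and mice that received untransduced OT1 cells. Members were all cells of these 2 libraries with 500 to 6000 detected genes, 2000 to 40000 unique molecular identifiers (UMIs, each standing for 1 captured RNA molecule) and less than 10% mitochondrial UMIs. This kept 2410 cells after orthogonal ACT and 2018 after untransduced ACT, which is 4428 of the 13046 cells that pass in the 8 libraries of the series. The comparison asks how the tumor immune infiltrate differs early after transfer when the transferred cells secrete these molecules.

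All mice were C57BL/6 and carried subcutaneous B16-OVA tumors, a melanoma line made to express ovalbumin. None was lymphodepleted, so host lymphocytes were present beside the transferred cells. OT1 cells are CD8+ T cells whose receptor recognizes an ovalbumin peptide. They carried the CD45.1 allele, had been cultured toward a central memory-like phenotype and were infused intravenously on 2 occasions. The study counts days after transfer from the earlier infusion, so cells of the later one had been in the mice for a shorter time. The orthogonal product was a 1:1 mixture of OT1 cells transduced with PD1d/IL-2v and OT1 cells transduced with PD1d/IL-33. PD1d is a soluble decoy in which the extracellular part of murine PD-1 is carried on a human IgG4 Fc. IL-2v lacks binding to CD25, the chain that gives the IL-2 receptor its high affinity, and IL-33 was murine. The vectors were retroviral. Tumors of 5 mice were pooled for each library and CD45+ cells were sorted with enrichment for CD8+ cells, so shares of cell types also reflect the sort. Transferred and host CD8+ cells were not told apart here.

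IL-2 signals through the beta and common gamma receptor chains on T cells and NK cells, activates STAT5 and sustains their growth and granzyme expression. IL-33 is an alarmin whose receptor ST2, encoded by Il1rl1, is found on type 2 innate lymphoid cells, mast cells, basophils, a part of the regulatory T cells and some activated T cells. Cells stimulated through ST2 can secrete IL-13, IL-5 and amphiregulin. IL-4 and IL-13 signal through IL-4R alpha and STAT6, and in macrophages this induces a set of genes known as alternative activation, among them Arg1, Mrc1, Chil3, Retnla and Ccl24.

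Each side is 1 library, so no test was possible, and no value here has a replicate check. Intervals are exact 95% intervals (Poisson for counts, Clopper-Pearson for shares) and cover counting error only. Intervals of a difference between shares combine the bounds of both shares in squares and are approximate. Both libraries held 2500 barcodes, with 17851327 UMIs after orthogonal ACT and 15572622 after untransduced ACT, and the passing cells had medians of 5911.5 and 5394.5 UMIs. More barcodes failed the filter after untransduced ACT (482 against 90), 420 of them with under 2000 UMIs. Just inside the limit, at 2000 to 2200 UMIs, lay 47 and 66 barcodes, and just outside, from 1800 UMIs up, 31 and 77, after orthogonal and untransduced ACT. Mitochondrial genes took a median of 3.36% and 2.32% of UMIs, and ribosomal protein genes 27.1% and 22.5%, after orthogonal and untransduced ACT. The libraries shared 6 barcodes, 4 of them in passing cells of both. A run here means a shared identifier in the deposited record of each library. Whether it stands for sequencing or for tissue processing is not given. The libraries differed in it, so run and treatment cannot be told apart. The transgenes could not be used to check the label, since recoded inserts may not be counted: Il33 had 1 UMI in CD8 T cells after orthogonal ACT and 0 after untransduced ACT, and Il2 had 13 and 47. The study measured IL-2v with antibodies against human IL-2, so counts of mouse Il2 may not report it for that reason as well.

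NK cells made up a larger share of the leukocytes after orthogonal ACT, and T cells a smaller one. Cells were assigned by summed UMIs of lineage markers: Cd3d, Cd3e and Cd3g with Cd8a and Cd8b1 or Cd4 for T cells; Ncr1, Klrb1c and Klre1 for NK cells; Lyz2, Csf1r, Cd68, Ly86, Ms4a6c and Aif1 for myeloid cells. NK cells were 40.5% (38.5 to 42.4) of 2410 cells after orthogonal ACT and 26.5% (24.6 to 28.5) of 2018 after untransduced ACT, a difference of 13.9 percentage points (11.2 to 16.7). All T cells together were 34.3% (32.4 to 36.2) and 48.8% (46.6 to 51.0). Within the T cells the CD8 T gate held 20.4% and 24.8% of cells, a difference of -4.45 points (-6.97 to -1.95), and the CD4 T gate 7.59% and 8.62%, whose intervals overlap.

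**Figure D1:**
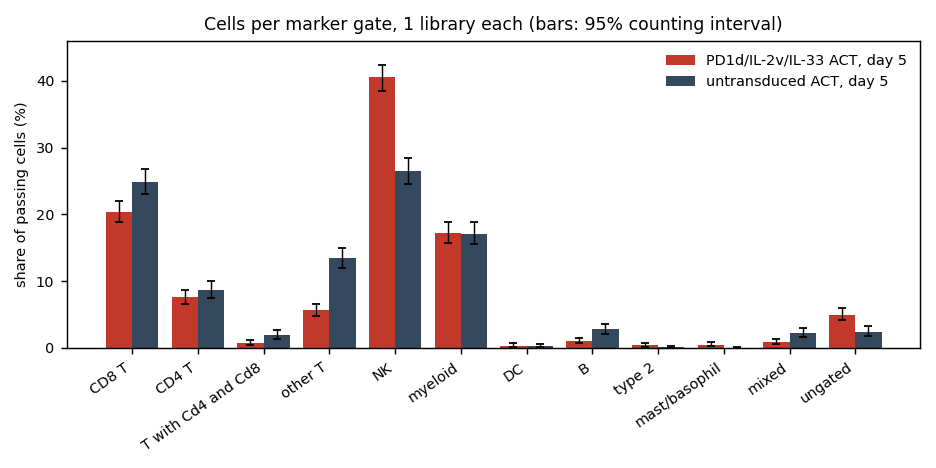
Percent of passing cells in each marker gate (share on the y axis, gates on the x axis) in the orthogonal (PD1d/IL-2v/IL-33) and the untransduced library at day 5, with exact 95% binomial intervals. NK cells lie at 40.5% against 26.5%, while the myeloid gate lies at 17.2% and 17.1%.

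Myeloid cells took 17.2% (15.7 to 18.8) and 17.1% (15.5 to 18.8), a difference of 0.124 points whose interval ran from -2.15 to 2.38. B cells were 1.04% and 2.78%. Cells that met no gate were 4.98% (4.15 to 5.92) and 2.43% (1.80 to 3.20). They held 83.1% and 81.2% of the UMIs of the neutrophil gene S100a9, so the myeloid share leaves out most of that signal. Rare cells with mast cell or basophil markers (Mcpt8, Cpa3, Fcer1a and Ms4a2) numbered 11 after orthogonal ACT and 0 of 2018 after untransduced ACT, which allows a share of up to 0.149% by 3 counts and up to 0.183% by the exact interval. The non-treated library of day 5 held 1 such cell of 280, and orthogonal ACT at day 12 and day 26 held 0 of 1665 and 0 of 3669. Cells with Il1rl1 and Gata3 that met none of the lymphocyte or myeloid gates, as type 2 innate lymphoid cells would, numbered 9 and 1 after orthogonal and untransduced ACT at day 5. The markers that define the gates were themselves less abundant after orthogonal ACT: the summed Cd3 genes in the CD8 T gate reached 1920 and 3780 counts per 1000000 (CPM), the NK markers in the NK gate 1260 and 2290 CPM, and the myeloid markers in the myeloid gate 4230 and 14300 CPM. After every cell was thinned to 2000 UMIs, NK cells were 30.2% and 26.3%, a difference of 3.94 points in place of 13.9. Under the filter of the study's later experiment the CD8 T shares were 17.2% and 17.1%. T cells with neither Cd4 nor Cd8 transcripts were 5.60% and 13.4%, and 40.7% and 33.7% of them carried at least 2 UMIs of the NK markers.

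Gene levels were then compared within the CD8 T, NK and myeloid gates. UMIs were summed over the cells of a gate, divided by the total and expressed as CPM, and the log2 ratio of orthogonal over untransduced ACT was taken after adding 10 CPM to both sides, which draws the ratios of low genes toward 0. Genes with at least 50 UMIs in both libraries together were compared, and a gene at least 2-fold different on this scale was counted as higher or lower. The gates held 491 and 501 CD8 T cells, 975 and 535 NK cells and 415 and 345 myeloid cells, after orthogonal and untransduced ACT respectively. With trimmed mean (TMM) scaling in place of the plain total, the median over all genes moved by 0.11 in CD8 T cells and 0.19 in NK cells on the log2 scale and by -0.04 in myeloid cells.

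**Figure D2:**
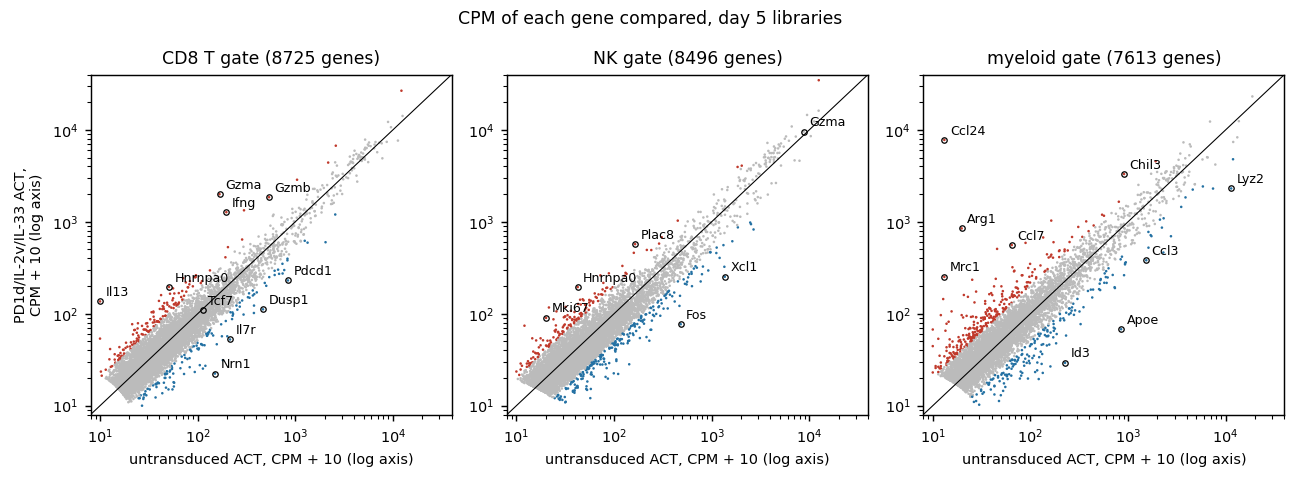
CPM + 10 of each gene compared in the CD8 T, NK and myeloid gates after untransduced (x axis) and orthogonal ACT (y axis), on log axes, with named genes marked. In the myeloid gate Ccl24 lies farthest above the diagonal, at a level of 7766 against 3.14 CPM, and Apoe far below it, at 57.9 against 840.0 CPM.

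Myeloid cells after orthogonal ACT carried most genes of alternative activation at higher levels. Of the 15 compared genes of that list, 10 were at least 2-fold higher and 1, Ear2, was lower, with a median log2 ratio of 1.86, which is also the median with Retnla set at the floor of 3 counts. Among all 7613 genes compared in the gate 3.68% were higher and 2.44% lower, with a median of 0.07. The other 4 compared genes, Il4ra, Tgfbi, Il13ra1 and Socs3, had log2 ratios from -0.65 to 0.84, and Cd163 and Folr2 had too few UMIs to be compared. Counts of 10 higher and 1 lower were also obtained with TMM scaling, with every cell weighted alike and without the 10% of cells with the most UMIs.

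Ccl24 encodes eotaxin-2, a chemokine for eosinophils and other CCR3-bearing cells, and was measured at 7766 CPM (7680 to 7853) after orthogonal ACT and 3.14 CPM (1.44 to 5.96) after untransduced ACT. These levels rest on 31115 UMIs in 280 of 415 cells and on 9 UMIs in 5 of 345 cells. No single cell held more than 2.59% of the 31115 UMIs. With every cell thinned to 2000 UMIs, 61.4% and 0.58% of the myeloid cells had a Ccl24 UMI. NK cells, which should lack the gene, had it in 1.33% and 0% of cells, at median depths of 5339 and 4695 UMIs against 9697 and 8226 in the myeloid gate. In the other 6 libraries of the series, the myeloid level of Ccl24 lay between 0 and 1518 CPM, the highest being orthogonal ACT at day 12.

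Arginase 1, which consumes extracellular arginine, followed the same pattern: Arg1 stood at 838 CPM (809.5 to 866.4) and 9.77 CPM (6.49 to 14.1), a log2 ratio of 5.42. Mrc1 encodes the mannose receptor CD206, a surface marker of alternatively activated macrophages, and was at 242 and 3.14 CPM (log2 ratio 4.26). The 2 libraries did not overlap in counting error for either gene. Cells with an Arg1 UMI more often had abundant Ccl24: 87.0% of the 108 cells with Arg1 had 10 or more Ccl24 UMIs, against 43.0% of the 307 cells without. The corresponding shares were 85.0% and 35.3% for Mrc1, and deeper cells were more often positive, with median depths of 11707 and 7112 UMIs in cells with and without Mrc1.

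Mgl2, a lectin receptor for galactose-type sugars, was at 150.0 and 10.8 CPM (log2 ratio 2.94). Chil3 encodes the chitinase-like protein Ym1 and was at 3300 (3244 to 3357) and 901 (866 to 936) CPM, a log2 ratio of 1.86. Pdcd1lg2 encodes PD-L2, a ligand of PD-1, and was at 158 and 29.7 CPM. Retnla, which encodes the secreted protein RELM alpha, had 138 UMIs in 11 cells after orthogonal ACT, of which 52.9% came from 1 cell, and 0 UMIs after untransduced ACT. Ccl17, a CCR4 ligand that recruits type 2 and regulatory T cells, had 385 UMIs in 12 cells against 16 UMIs in 6 cells. Retnla and Ccl17 were therefore measured in few cells, in contrast to Ccl24.

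The binding sites of STAT6 and of STAT5 share a palindromic core, TTC and GAA separated by 4 bases in the STAT6 site and 3 in the STAT5 site. The 250 bases upstream of the transcription start were searched for TTC followed by any 4 bases and GAA, a palindrome that reads alike on both strands, in the 10 higher alternative-activation genes. Of these genes, 7 were in the table of upstream sequences used (RefSeq, build GRCm38.p6). Ccl24, Arg1 and Maf were not in it and were not searched. The motif was found in 3 of the 7, and 5.85% of 32851 upstream windows of the same length held it. The 7 came from a list made of known alternative-activation genes and were picked as higher here. These shares are therefore no test of STAT6, whose part was not tested. Mrc1, Chil3, Mgl2 and Ccl22 had no match. These windows are shown because they place the motif close to the start of genes that differed between the libraries. The match is in capitals, and its first base lies 145 bases before the start of Retnla, 154 before that of Ccl17 and 82 before that of Pdcd1lg2. All 3 lie on the plus strand, at chr16:48842359-48842608, chr8:94810203-94810452 and chr19:29410669-29410918. A match describes letters only, and binding was not measured.
Retnla: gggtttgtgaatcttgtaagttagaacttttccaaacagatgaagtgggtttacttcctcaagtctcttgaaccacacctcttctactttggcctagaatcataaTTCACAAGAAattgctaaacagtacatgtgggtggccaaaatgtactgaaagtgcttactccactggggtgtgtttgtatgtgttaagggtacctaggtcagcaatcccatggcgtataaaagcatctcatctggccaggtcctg
Ccl17: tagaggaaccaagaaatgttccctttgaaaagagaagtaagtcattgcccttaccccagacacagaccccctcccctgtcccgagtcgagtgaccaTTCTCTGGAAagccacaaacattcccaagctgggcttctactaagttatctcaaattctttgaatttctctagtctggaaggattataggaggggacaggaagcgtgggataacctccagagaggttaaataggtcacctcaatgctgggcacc
Pdcd1lg2: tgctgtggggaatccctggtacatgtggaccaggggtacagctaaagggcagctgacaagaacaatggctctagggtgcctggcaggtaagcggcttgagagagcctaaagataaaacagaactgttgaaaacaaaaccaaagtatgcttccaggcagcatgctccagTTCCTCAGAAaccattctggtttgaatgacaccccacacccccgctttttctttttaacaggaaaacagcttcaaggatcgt

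**Figure D3:**
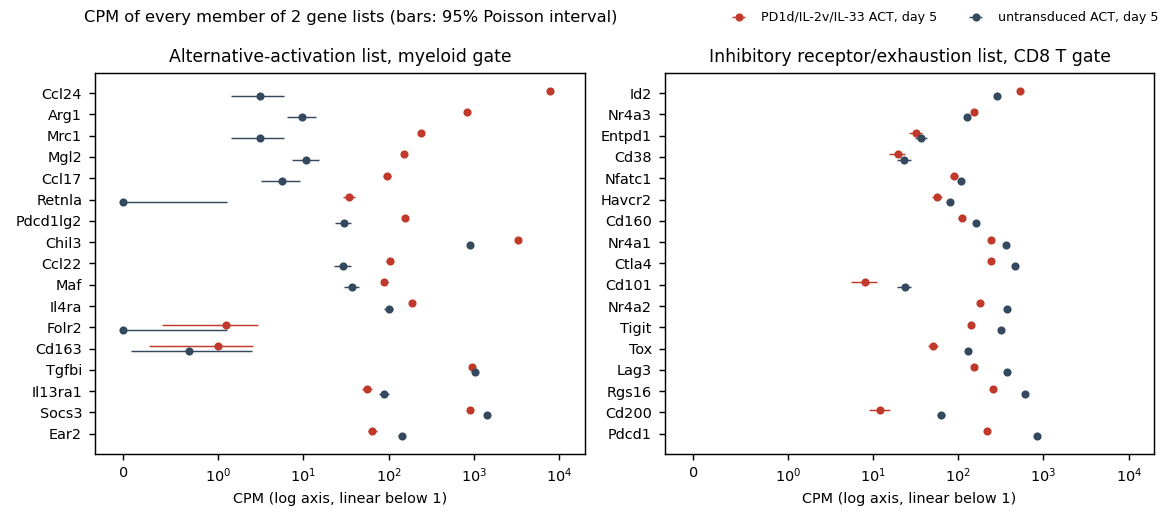
CPM of every member of the alternative-activation list in the myeloid gate and of the inhibitory receptor and exhaustion list in the CD8 T gate (x axis, log above 1 and linear below) in both libraries, with exact 95% Poisson intervals. Ccl24, Arg1 and Mrc1 are the farthest apart in the myeloid gate, while Pdcd1 lies at 220 against 831 CPM in CD8 T cells.

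The complement gene C1q marks a part of tumor macrophages. Cells with at least 3 C1q UMIs were 41.2% (36.4 to 46.1) of the myeloid gate after orthogonal ACT and 10.7% (7.66 to 14.5) after untransduced ACT. Ccl24 differed in both subsets: it was at 12900 and 5.08 CPM in C1q-positive cells, and at 3160 and 2.83 CPM in the remaining cells. Arg1 likewise stood at 1080 and 35.6 CPM in the first subset and at 619 and 5.66 CPM in the second. Ear2, lower over the whole gate, was at 70.5 and 2.54 CPM in the first subset and at 59.4 and 165 CPM in the second. Maf, higher over the whole gate, was at 86.8 and 104 CPM in the first subset, with overlapping intervals, and at 92.1 and 26.3 CPM in the second. C1qb was higher over the whole gate (781 and 385 CPM), though its log2 ratio of 0.95 with TMM scaling missed 2-fold. It was lower within the C1q-positive cells (1640 and 2770 CPM), of which there were 37 after untransduced ACT. C1qb is among the genes that choose these cells, so its level in them depends on that choice.

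Other secreted factors of myeloid cells differed in opposite directions. Of the 19 compared genes of the inflammatory cytokine list, 4 were higher and 5 lower, with a median log2 ratio of -0.55, and 2 were lower with every cell weighted alike. Il6 was at 339 and 89.3 CPM and was found in 177 of 415 and 73 of 345 cells. The monocyte-attracting chemokines were also higher, Ccl7 at 549 and 54.4 CPM and Ccl12 at 305 and 85.2 CPM, but 60.4% of the Ccl7 UMIs came from 10 cells and 45.1% of the Ccl8 UMIs from 1. Within C1q-positive cells Ccl7 was at 680 and 358 CPM, which does not reach 2-fold. In the remaining cells it was at 431 and 6.07 CPM. Ccl3 and Ccl4, inflammatory chemokines that attract leukocytes, were lower: Ccl3 was at 372 (353 to 391) and 1529 (1484 to 1575) CPM, and Ccl4 at 2415 and 5835 CPM. Tnf was at 1082 and 2307 CPM and Cxcl2, a neutrophil chemokine, at 1833 and 3872 CPM. Il1b stood at 4187 and 7834 CPM, a log2 ratio of -0.90 that does not reach 2-fold. Within C1q-positive cells the log2 ratio of Ccl3 was -0.44, in place of -2.01, that of Ccl4 was -0.05 in place of -1.27, and Tnf was at 1340 and 1300 CPM.

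Cish and Socs1, feedback inhibitors of cytokine receptor signaling, were higher in myeloid cells, while the related Socs3 was at 914 and 1442 CPM. Cish, a target of STAT5 and STAT6, was at 230 (215 to 245) and 34.2 (27.8 to 41.7) CPM in the myeloid gate, and was seen in 32.5% and 4.06% of thinned cells. Socs1 was at 433 and 138 CPM. In the interferon-gamma-induced list 4 of 17 genes were higher and none lower: Socs1, Gbp7 and Iigp1, which act against intracellular microbes or restrain signaling, and the serpin Serpina3g. Iigp1 was at 279 and 57.9 CPM. The type I interferon-stimulated list had no higher and 6 lower genes of 22 (median log2 ratio -0.52), with Ifit3 at 13.2 and 102 CPM and Irf7 at 175 and 495 CPM. MHC class II and costimulatory genes had none of 12 past 2-fold, with H2-Eb1 at 1765 and 2905 CPM, and MHC class I genes none of 15. The NF-kappa B list had Traf1 lower of 13, the list of IL-33, IL-18 and IL-1 receptors Il1r2 lower of 5, and the glycolysis list Hk2 and Pgk1 higher of 15. None of the 10 compared cell cycle genes passed 2-fold.

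Apoe, the lipid carrier of macrophages, had the lowest ratio in the myeloid gate, at 57.9 (50.7 to 65.9) and 840.0 (807 to 874) CPM, and was detected in 7.47% and 44.3% of thinned cells. Id3, an inhibitor of helix-loop-helix factors, followed at 19.2 and 216 CPM. Of the 17 genes of the macrophage lipid and complement list, 2 were higher (Fabp5 and C1qb) and 3 lower (Apoe, Gpnmb and Ms4a7). In the monocyte list 1 of 17 was higher, Chil3, and 5 were lower, Hp, Ly6i, Ifitm6, Nr4a1 and Ace. Hp, which encodes haptoglobin, was at 108 and 340 CPM, Ly6i at 171 and 509 CPM and Ifitm6 at 135 and 293 CPM. Nr4a1 was at 855 and 2215 CPM and Ace at 45.4 and 162 CPM. Outside the list, Treml4 and Adgre4 were among the lowest ratios, at 16.7 and 150 CPM and at 12.7 and 124 CPM. Ly6c2 and Ccr2 had log2 ratios of -0.04 and 0.28. Cells with 10 or more UMIs of the neutrophil alarmin genes S100a8 and S100a9 were 12.0% and 0.87% of the gate, and the 5 neutrophil markers summed to 680 and 139 CPM. The part of these cells in the results of the gate was not tested.

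Mmp13 and Mmp12, which encode matrix metalloproteinases, were among the highest ratios. Mmp13 was at 134.5 and 2.79 CPM, on 539 UMIs in 36 of 415 cells with 68.8% in 10 of them, and Mmp12, the macrophage elastase, at 164 and 17.8 CPM. Slc7a2, a carrier of cationic amino acids including arginine, was at 143 and 12.9 CPM, and the heparan sulfate proteoglycan Sdc4 at 1021 and 154 CPM. In the dendritic cell list 4 of 11 compared genes were higher (Batf3, Clec10a, Ccl22 and Siglech) and 2 lower (Cd209a and Fscn1). Cd209a had 320 UMIs in 17 cells after untransduced ACT and 38 in 12 cells after orthogonal ACT. Lyz2, used to assign the gate, stood at 2296 and 11390 CPM.

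Type 2 cytokine transcripts were far more abundant after orthogonal ACT, mainly in CD4 T cells. This gate was compared after its values had been seen. The library held 6171 Il13 UMIs in passing cells after orthogonal ACT and 42 after untransduced ACT, and 61.8% of the former were in the CD4 T gate. Il13, which acts on macrophages and epithelium through IL-4R alpha, was at 2958 (2864 to 3053) and 4.09 (1.11 to 10.5) CPM, with UMIs in 76 of 183 and 2 of 174 CD4 T cells. Il5, the eosinophil growth factor, had 2414 UMIs in the gate against 0. Areg, which encodes the tissue repair factor amphiregulin, was at 4227 and 394 CPM. Il4 was at 198 and 3.07 CPM. In thinned cells Il13 was detected in 36.1% (29.1 to 43.5) and 0% (0 to 2.10) of the gate, against 0.241% and 0% of the myeloid gate, at median depths of 5855 and 4242 UMIs in CD4 T cells. Cells of the other T gates held most of the remaining Il13, and the 9 cells with type 2 innate lymphoid markers all had it, with 193 UMIs together. More than the CD4 T gate, the 11 cells with mast cell or basophil markers held Il4, with 417 of the 781 UMIs.

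**Figure D4:**
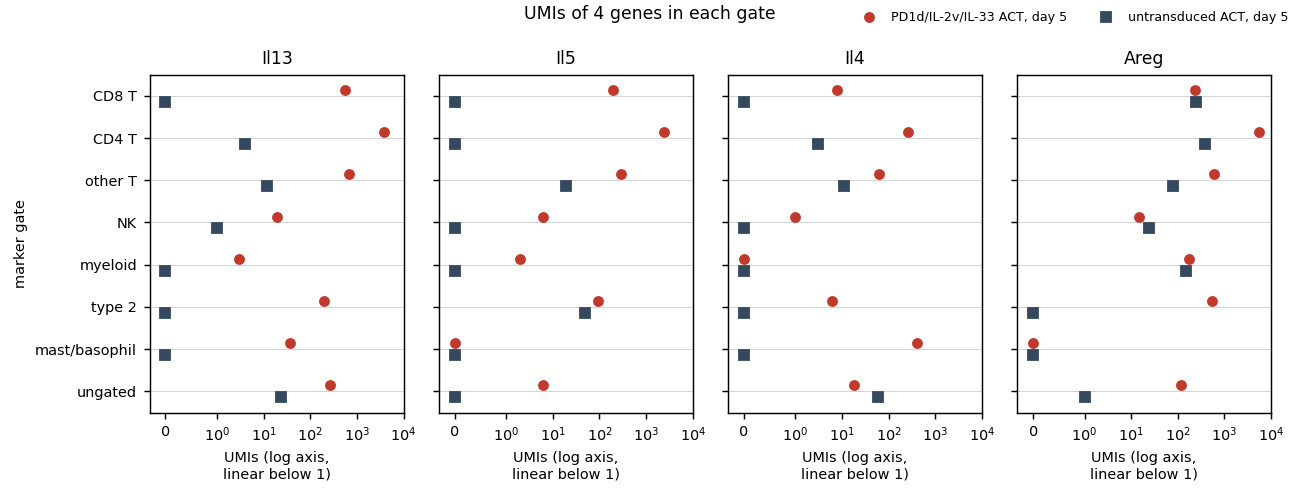
UMIs of Il13, Il5, Il4 and Areg (x axis, log above 1 and linear below) in 8 marker gates of both libraries. The CD4 T gate held 3816 Il13 UMIs after orthogonal and 4 after untransduced ACT, and 417 Il4 UMIs were in the mast cell or basophil gate.

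Most CD4 T cells with Il13 carried ST2 transcripts and few carried Foxp3. Among the 76 cells, Il1rl1 was detected in 71, Gata3, the master factor of type 2 lymphocytes, in 72, Cd3e in 74 and Foxp3 in 2. In the 107 CD4 T cells without Il13, Il1rl1 was seen in 29 and Foxp3 in 35, at a lower median depth (4828 against 7805 UMIs). Over the whole gate Il1rl1 was at 646 and 50.1 CPM and Gata3 at 549.5 and 105 CPM. Cells with Foxp3, the factor of regulatory T cells, were 20.2% (14.7 to 26.8) and 43.7% (36.2 to 51.4) of the gate. Il9 had 1086 UMIs in 7 cells, 662 of them in 1. Of 5178 genes compared in this small gate, 4.77% were higher and 5.62% lower. In the other 6 libraries Il13 in CD4 T cells ranged from 0 to 567 CPM, with 567 CPM after PD1d/IL-33 ACT and 486 CPM after orthogonal ACT, both at day 12.

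CD8 T cells after orthogonal ACT carried more granzyme A, granzyme B and chemokine transcripts, and less of several inhibitory receptors, than after untransduced ACT. Of 8725 genes compared, 144 were higher (1.65%) and 127 lower (1.46%), or 229 and 84 with TMM scaling. The median log2 ratio was -0.10.

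Gzma, a granule protease, was at 1986 CPM (1944 to 2028) after orthogonal ACT and 157.5 CPM (146.5 to 169) after untransduced ACT, a log2 ratio of 3.57. It was spread over cells, with UMIs in 44.2% (39.7 to 48.7) and 8.78% (6.45 to 11.6) of CD8 T cells thinned to 2000 UMIs, and in 55.8% and 15.4% before thinning. Myeloid cells, which should lack it, had it in 4.82% and 1.16% of thinned cells, at median depths of 9697 and 8226 UMIs against 7494 and 7577 in CD8 T cells. Gzmb, the protease that activates caspases in target cells, was at 1842 and 528.5 CPM, with 64.8% and 26.5% of thinned cells and 79.2% and 39.5% of unthinned cells positive. Both granzymes were thus above the untransduced library in level and in share of cells. Of the 16 compared genes of the cytotoxic list, Gzma, Gzmb and Serpinb6b, an intracellular granzyme inhibitor, were higher and the cathepsin Ctsw lower. The pore-forming perforin, Prf1, was at 137 and 121 CPM (log2 ratio 0.18), Gzmc at 137 and 100.1 CPM (0.42) and Gzmk at 158 and 92.1 CPM (0.72). In the other 6 libraries the CD8 T level of Gzma ranged from 40.6 to 1386 CPM.

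Effector cytokines and chemokines were unevenly distributed over cells. Of the 14 compared genes of the lymphocyte cytokine list, Ifng, Ccl3, Ccl4, Ccl5 and Tnfsf8 were higher and Csf1, Lta and Ltb lower, and 3 were higher when each cell had equal weight. Ifng, the main macrophage-activating cytokine of T cells, was at 1263 and 187 CPM, but 14.1% and 14.8% of thinned cells had it and 70.2% of its 5525 UMIs came from 10 of 491 cells. Its log2 ratio ranged from 1.45 to 2.85 over the alternatives, with 2.69 as reported. Ccl3 was at 1324 and 288 CPM, with 69.6% of its UMIs in 10 cells, and Ccl4 at 2859 and 1033 CPM, with 67.5% in 10 cells and 25.3% and 28.1% of thinned cells positive. Ccl5, by contrast, was broadly present, at 6721 (6644 to 6798) and 2591 (2546 to 2637) CPM and in 77.8% and 61.1% of thinned and 88.0% and 76.0% of unthinned cells. Il13 had 552 UMIs in 22 CD8 T cells against 0, at least 204-fold higher when the untransduced library is set at a floor of 3 counts, yet 1 cell held 50.9% of them. These 22 cells also held 3103 of the 5525 Ifng UMIs, with Ifng detected in 15 of them. They were deeper than the CD8 T cells without Il13, with medians of 12758 and 7305 UMIs, and doublets among them were not tested for.

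Several inhibitory receptors and exhaustion-associated factors were lower. In this list none of 17 genes was higher and 6 were lower, or 1 and 5 with TMM scaling. The 6 were Pdcd1, Cd200, Rgs16, Lag3, Tox and Tigit, and the list had a median log2 ratio of -0.90. Pdcd1 encodes PD-1, the receptor whose ectodomain forms PD1d, and was at 220 (207 to 235) and 831 (805 to 857) CPM, with 28.7% and 53.5% of thinned and 51.7% and 64.7% of unthinned cells positive. Thinned myeloid cells had it in 0.241% and 1.16%. Its level after untransduced ACT was the highest of the 8 libraries, and that after orthogonal ACT the lowest, the other 6 lying between 229 and 683 CPM. Its log2 ratio was -1.87 and ranged from -2.06 to -1.72 over the alternatives. Lag3, an MHC class II-binding inhibitory receptor, was at 153 and 370 CPM, and Tigit at 141 and 317 CPM. Tox, the chromatin factor of exhausted T cells, was at 51.0 and 129 CPM, and in 9.57% and 21.0% of thinned and 24.6% and 50.1% of unthinned cells. Havcr2, which encodes TIM-3, and Entpd1, which encodes CD39, differed less, with log2 ratios of -0.43 and -0.16. Id2, a factor of effector differentiation, was at 525 and 284 CPM (0.86), and Nfatc1 at 89.6 and 108 CPM (-0.25).

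Naive and memory genes were lower in part. None of the 12 compared genes was higher and 4 were lower: Il7r, Dapl1, Ccr7 and Klf2 (median log2 ratio -0.65). Klf2 was lower in NK and myeloid cells as well, with log2 ratios of -1.19, -1.56 and -1.44 in CD8 T, NK and myeloid cells. Il7r, the IL-7 receptor chain of naive and memory cells, was at 42.5 and 205 CPM, and Ccr7, the lymph node homing receptor, at 191 and 494.5 CPM. Tcf7, which encodes TCF1, the factor of stem-like cells, was at 99.9 and 103 CPM, a log2 ratio of -0.04.

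Among the lowest ratios in CD8 T cells were Nrn1 at 12.4 and 140 CPM, Nrgn, the calmodulin-binding neurogranin, at 21.3 and 171 CPM, Penk, the enkephalin precursor, at 15.3 and 103 CPM, and the chemokine receptor Ccr8 at 17.6 and 95.2 CPM. Among the highest were Epas1, encoding HIF-2 alpha, at 31.3 and 2.68 CPM and Cdkn2a, a cyclin-dependent kinase inhibitor, at 67.0 and 11.3 CPM. Receptors of the engineered and of related cytokines differed in both directions. Il1rl1 was at 16.5 and 2.89 CPM, with UMIs in 22 of 491 and 13 of 501 cells, and Il1r2, the decoy receptor of IL-1, at 7.77 and 35.1 CPM. The common gamma chain Il2rg was at 284 and 605 CPM, Il2rb at 414.5 and 708 CPM and Il2ra at 149 and 75.6 CPM. Of 14 genes of the IL-2 and STAT5 list, the survival gene Bcl2l1 was higher and Il2rg lower, though Il2rg did not pass 2-fold with TMM scaling and was lower in NK and myeloid cells too (log2 ratios of -1.32 and -1.14). Of 7 receptors for IL-33, IL-18 and IL-1, Il1rl1 was higher and Il1r2 lower. Without the cells with Il13, 6 of which held 36 of the 72 Il1rl1 UMIs, the log2 ratio of Il1rl1 was 0.55 in place of 1.04, and it also missed 2-fold without the 10% of cells with the most UMIs.

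Lectin-like receptors shared with NK cells had 4 of 12 genes lower in CD8 T cells, among them Klrd1 at 289 and 761 CPM and Klrk1, which encodes NKG2D, at 148 and 358 CPM. Tnfrsf4, which encodes the costimulator OX40, was the 1 of 11 costimulatory genes past 2-fold, at 88.0 and 285 CPM. Transcription factors of effector cells had 1 of 14 higher, Eomes, at 56.5 and 22.9 CPM. Cycling cells, with at least 2 UMIs of Mki67, Top2a, Birc5, Cdk1 and Ccnb2, were 27.3% and 26.1% of the gate before thinning. Mki67 alone was in 14.9% (11.8 to 18.3) and 8.38% (6.11 to 11.2) of thinned cells, and in 26.3% and 22.8% of unthinned cells. None of 25 cell cycle genes was higher, 2 were lower and the list had a median log2 ratio of -0.43. With TMM scaling, with every cell weighted alike or without the 10% of cells with the most UMIs, 0 were lower, with medians of -0.31, -0.09 and -0.15. The migration list had Cxcr4 and Ccr2 higher and Ccr7 lower of 18, the glycolysis list Hk2 and Pgk1 higher of 16, the NF-kappa B list Nfkb1 higher of 13 and the MHC class I list Nlrc5 higher of 15. No gene of the type I interferon list passed 2-fold in either direction among 20.

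NK cells were more often cycling after orthogonal ACT and carried less Xcl1. Several lectin-like and natural cytotoxicity receptors and some interferon-stimulated genes were also lower in them. Of 8496 genes compared, 144 were higher (1.69%) and 231 lower (2.72%), and with TMM scaling 315 and 107. The median log2 ratio was -0.17. The balance of higher and lower genes in this gate thus turned with the scaling.

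Cycling cells were 8.62% (6.93 to 10.6) of 975 NK cells and 2.80% (1.58 to 4.58) of 535. Of 24 compared cell cycle genes 7 were higher and none lower, with a median log2 ratio of 0.59. Mki67, a proliferation marker, was at 80.1 (73.0 to 87.8) and 10.1 (6.79 to 14.6) CPM, Top2a, which encodes a topoisomerase of dividing cells, at 82.0 and 25.2 CPM, and Ube2c, of the anaphase-promoting machinery, at 41.3 and 5.94 CPM. Without the cycling cells, 13 of the genes could be compared and 0 were 2-fold higher. Cycling cells are chosen by genes of this list, so that count follows in part from the choice. Genes of replication licensing such as Mcm6 and Mcm7 had log2 ratios of 0.20 and 0.03.

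The cytotoxic program of NK cells was close in the 2 libraries for its main granzymes. Gzma was at 9550 and 8748 CPM (log2 ratio 0.13), Gzmb at 2045 and 2294 CPM (-0.17) and Prf1 at 577 and 790 CPM (-0.45). Gzmb was nevertheless detected in more NK cells, 81.1% (78.5 to 83.5) and 61.1% (56.8 to 65.3) after thinning and 93.0% and 72.9% before, against 1.45% and 0.58% of thinned myeloid cells. Of 14 cytotoxic genes 3 were lower, Gzmc, Fasl and Ctsw. Gzmc was at 286 and 914 CPM, but 23.7% of its 2616 UMIs after untransduced ACT came from 1 cell and 9.33% and 8.97% of thinned cells had it. Fasl, the death receptor ligand, was at 160.1 and 404 CPM.

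Xcl1, a chemokine that attracts cross-presenting dendritic cells, was at 242 (230 to 256) and 1353 (1311 to 1396) CPM in NK cells, and in 20.7% and 52.0% of thinned and 32.6% and 66.2% of unthinned cells. Of 15 lectin-like and natural cytotoxicity receptors none was higher and 7 were lower, or 4 with TMM scaling. Ncr1, which encodes NKp46 and helped to define the gate, was at 214.5 and 762 CPM and in 32.2% and 69.0% of thinned cells. The NKG2 genes Klrc1 and Klrk1 were at 202 and 523 CPM and at 456 and 953 CPM. Klra7, a Ly49 receptor, went the other way, at 624 and 492 CPM, without reaching 2-fold.

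Maturation genes of NK cells divided in a similar way, with Itgam higher and Il7r, Ly6c2, Cxcr6, Cd7 and S1pr5 lower of 17. Itgam, which encodes the CD11b of mature NK cells, was at 81.2 and 25.5 CPM for the more abundant of its 2 entries in the gene list. Il7r was at 2.08 and 47.2 CPM and the residency-associated receptor Cxcr6 at 6.24 and 42.3 CPM. Plac8 was at 562 and 154 CPM and in 36.3% and 17.4% of thinned and 47.5% and 26.2% of unthinned NK cells. Type I interferon-stimulated genes had 8 of 19 lower and none higher, 5 with TMM scaling, with Isg15 at 15.6 (12.6 to 19.2) and 74.1 (64.4 to 84.7) CPM and Irf7 at 41.1 and 133 CPM. In the IL-2 and STAT5 list Il2rg, Socs3 and Myc were lower of 15, Myc at 45.8 and 205 CPM, while Cish was at 86.7 and 78.2 CPM. Of the remaining lists, Xcl1 and Ltb were lower among 9 cytokines, Nfkbia, Relb and Icam1 among 13 NF-kappa B genes, Rora among 13 effector factors and Tnfrsf18, Cd226, Cd2 and Crtam among 9 costimulatory genes. With TMM scaling 1 NF-kappa B gene, 2 costimulatory genes and no effector factor were lower, and 1 NF-kappa B gene was higher. In the migration list of 18, Cxcr4 was higher and Cxcr3, Cxcr6, Ccr7, S1pr5, Cd69 and Ly6c2 lower, or 2 lower with TMM scaling. Pgk1 was the higher gene of 16 in the glycolysis list, and none of the 5 compared IL-33, IL-18 and IL-1 receptor genes passed 2-fold.

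A group of genes differed alike in CD8 T, NK and myeloid cells. Of 6595 genes compared in all 3 gates, 31 were higher in each and 17 lower in each. The lower ones included Lyz2, a marker of the myeloid gate. In CD8 T cells Lyz2 had 8 UMIs in 8 cells after orthogonal ACT and 86 UMIs in 79 cells after untransduced ACT. The part of RNA from other cells in such values was not tested. Hnrnpa0, an RNA-binding protein gene, was at 186, 185 and 128 CPM after orthogonal ACT and at 40.9, 32.5 and 32.5 CPM after untransduced ACT in the CD8 T, NK and myeloid gates. Pgk1, a glycolytic enzyme gene, was at 149.5, 77.0 and 149.8 CPM and at 32.2, 13.97 and 30.7 CPM. The share of higher genes differed with the GC content of the 300 bases around the transcription start. In the tenth of genes with the highest content, at least 70.2%, it was 5.28%, 5.54% and 8.02% in these gates, and in the rest it was 1.20%, 1.18% and 3.15%.

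The lower genes shared by the gates included immediate-early genes and early-response regulators, known to be induced within the time of tissue dissociation. In the dissociation stress list 6 of 15 genes were lower in each gate and none higher. Dusp1, a phosphatase that limits MAP kinase signaling, was at 102, 314 and 1440 CPM and at 457, 1340 and 3500 CPM in CD8 T, NK and myeloid cells. Fos, a component of AP-1, was at 66.9 and 472 CPM in NK cells. Zfp36, which destabilizes cytokine transcripts, was at 112 and 458 CPM in NK cells and 2290 and 7420 CPM in myeloid cells. What sets these shared differences was not tested.

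**Figure D5:**
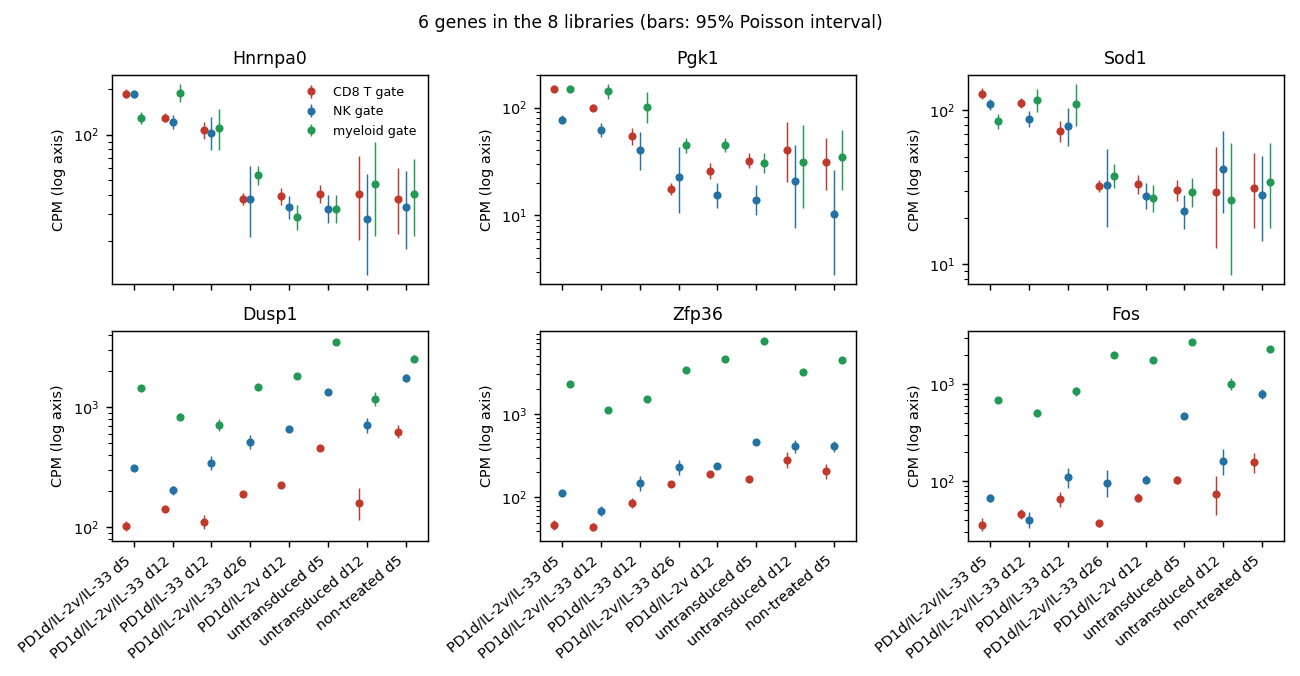
CPM with exact 95% Poisson intervals (y axis, log) of 6 genes that differed in all gates, in each of the 8 libraries (x axis), by gate. Hnrnpa0 in CD8 T cells lies at 186 CPM after orthogonal ACT at day 5 and at 129 and 107 CPM after orthogonal and PD1d/IL-33 ACT at day 12, against 37.8 to 40.9 CPM in the other 5 libraries.

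Some of the other libraries shared a run, and in their CD8 T cells these genes did not all differ alike. Values are for CD8 T cells unless another gate is named. Some of these libraries were small. Untransduced ACT at day 12 held 41 CD8 T, 61 NK and 21 myeloid cells. PD1d/IL-33 ACT held 57 myeloid cells, and the non-treated library 77 CD8 T cells. The intervals treat UMIs as independent and do not cover the spread between so few cells. In a run with day 12 libraries after orthogonal and untransduced ACT, Hnrnpa0 was at 129 (121 to 138) and 40.6 (20.2 to 72.6) CPM, whereas Dusp1 was at 143 (134 to 152) and 159 (115 to 214) CPM. In the same run Zfp36 was at 44.1 (39.2 to 49.4) and 284 (224 to 355) CPM, and Fos at 45.7 (40.8 to 51.1) and 73.7 (45.0 to 114) CPM. Dusp1 did differ in NK cells of this run, at 203 (187 to 220) and 708 (614 to 812) CPM. In its myeloid cells Dusp1 was at 837 (785 to 893) and 1170 (1020 to 1330) CPM. Fos was at 511 (470 to 555) and 1010 (875 to 1170) CPM in these myeloid cells. Its intervals in the NK cells were 33.1 to 47.9 and 117 to 213 CPM. In a run with day 12 libraries after PD1d/IL-33 and PD1d/IL-2v ACT, Hnrnpa0 was at 107 (93.4 to 121) and 39.4 (34.3 to 44.9) CPM, and Fos at 65.0 and 67.6 CPM with overlapping intervals. Dusp1 was at 111 (97.2 to 126) and 226 (213 to 239) CPM there, and Zfp36 at 86.5 (74.6 to 99.8) and 191 (179 to 202) CPM. The Fos intervals of that run also overlapped in NK cells, at 110 (85.6 to 138) and 104 (94.5 to 115) CPM. In its myeloid cells Fos was at 850 (760 to 947) and 1790 (1740 to 1830) CPM. In a run with orthogonal ACT at day 26 and the non-treated library of day 5, Hnrnpa0 was at 37.8 (34.7 to 41.1) and 38.0 (22.1 to 60.8) CPM. Dusp1 was at 191 (184 to 198) and 627 (556 to 705) CPM in these 2 libraries. Fos was at 36.6 (33.6 to 39.8) and 156 (122 to 197) CPM in them. The day 5 libraries were all in different runs, so for the day 5 difference the part of the run was not tested.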

How the data were processed

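CD45+ cells sorted from pooled tumors were profiled by droplet 5′ single-cell RNA sequencing. The authors made UMI counts per gene and cell with Cell Ranger and aggregated the 8 libraries into 1 deposited matrix of 15700 barcodes. The values are whole UMI counts, not normalized. The submitters' processing notes name Cell Ranger 2.2.0, bcl2fastq and GRCm38, and the study's methods give another Cell Ranger version. Whether reads were subsampled on aggregation is not given in the sources used here. Cells were assigned to libraries by barcode suffix.

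From these counts, cells were filtered and gated by marker UMIs: T cells by at least 2 UMIs of the Cd3 genes, CD8 T cells by at least 1 of Cd8a or Cd8b1 without Cd4, NK cells by at least 2 UMIs of their 3 markers with at most 1 of Cd3, and myeloid cells by at least 3 UMIs over 2 or more of their 6 markers. Cells with T cell markers beside myeloid or B cell markers, or with myeloid beside B cell markers, were set apart as mixed. T cells with NK markers stayed in the T cell gates. In the CD8 T gate, 16.9% and 17.2% of cells had at least 2 UMIs of the NK markers after orthogonal and untransduced ACT. No doublet caller was run. CPM per gate, log2 ratios of CPM + 10, and counting intervals were computed with Python 3.11.15, numpy 2.4.6, scipy 1.17.1 and pandas 2.3.3, TMM factors with edgeR 4.0.16 in R 4.3.3, and figures with matplotlib 3.10.9. A gene counted as higher or lower at 2-fold or more, among genes with at least 50 UMIs. To compare how many cells carried a gene, each cell was thinned to 2000 UMIs. The log2 ratio and its interval were tested on simulated Poisson counts, which lack the uneven spread of UMIs over cells.

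The members and the 24 gene lists were chosen with earlier results of these data known. Named genes were the 15 highest and 15 lowest ratios per gate (leaving out ribosomal, mitochondrial, receptor-segment and immunoglobulin genes and unnamed gene models), up to 6 per list, genes the study names, Il33, Il2, Pdcd1 and gate markers. Some further list members are named to complete a count. Results were recomputed in 31 alternative runs, where a setting used in several gates counts once per gate, with 2 more chosen after seeing the data. A named gene ratio was recomputed in at most 10 of them. A gene-level result and a cell share that rests on it are not reported here.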

Additional observations from a re-analysis of the deposited data

Results flagged for a closer look

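Several chemokine genes differed in opposite directions in different cell types, by the log2 ratio of orthogonal over untransduced ACT. With 1 library a group, none of these differences between cell types was tested. Ccl3 had a log2 ratio of 2.16 in CD8 T cells and -2.01 in myeloid cells, and Ccl4 1.46 and -1.27. In CD8 T cells after orthogonal ACT, 10 cells held 69.6% of the Ccl3 and 67.5% of the Ccl4 UMIs, and in C1q-positive myeloid cells alone the log2 ratio of Ccl4 was -0.05. Cxcl2 had 2.44 in NK cells and -1.07 in myeloid cells, but 96.1% of its 617 UMIs in NK cells after orthogonal ACT came from 10 cells. Cxcl3 had 1.38 in NK cells, on 108 against 3 UMIs, and -1.45 in myeloid cells. The serpin gene Serpina3g had 1.80 in myeloid cells and -1.22 in CD8 T cells.

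The cells with mast cell or basophil markers, which enter no comparison of gene levels, held 417 Il4 UMIs after orthogonal ACT. All 11 such cells had Il4, with 156 UMIs in the highest, and no such cell was found after untransduced ACT.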

How the results depend on the processing

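No paired analysis was possible because each group is 1 library. Of the 203 named gene ratios past 2-fold, 153 stayed past it in every alternative run and 200 kept their sign. The 3 that reversed did so in C1q-positive myeloid cells alone, with log2 ratios of -0.75 for C1qb, 0.72 for Hp and 0.45 for Ifitm6. Of these genes C1qb is itself used to choose the cells. Outside the 203, the alternative-activation genes Ear2 and Maf also changed direction in these cells, Maf within counting error. Among list and share results 127 values kept to the reported one and 26 moved. With TMM scaling, 229 genes were higher and 84 lower in CD8 T cells and 315 and 107 in NK cells, and 4 NK receptor and 5 interferon-stimulated genes were lower in NK cells. With 1 CPM added in place of 10, 425 were higher and 449 lower in CD8 T cells, 421 and 656 in NK cells and 616 and 320 in myeloid cells, and 11 cell cycle genes were higher in NK cells. That count was 4 without the 10% of cells with the most UMIs and 0 without cycling cells, which are chosen by genes of the same list. In C1q-positive cells alone 491 genes were higher in the myeloid gate. Counting each cell alike left 3 higher cytokine genes in CD8 T cells, and removing cells with naive-cell markers, which are chosen by genes of that list, left 2 lower naive genes in place of 4.

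Under the later experiment's filter (cells of 400 to 3000 genes and 500 to 12000 UMIs, with limits of 5% on mitochondrial and 50% on ribosomal UMIs) the difference in CD8 T share reversed to 0.0575 points, and those of NK, myeloid, B and all T cells were 17.5, -3.49, -3.62 and -10.8 points. With cells thinned to 2000 UMIs the differences were -7.69 points for CD8 T, 3.94 for NK, -2.17 for myeloid and -17.7 for all T cells. Leaving out the Il13-positive CD8 T cells and comparing CD4 T cells were chosen after seeing the data. With 1 pooled library of 5 mice a side, variation between mice was not measured, and treatment, run and sort cannot be told apart. Genes with few UMIs cannot show small differences at this depth.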

Other observations

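In CD4 T cells after orthogonal ACT, Hdc, which encodes the enzyme that makes histamine, had 481 UMIs in 21 of 183 cells, 87.9% of them in 10 cells, against 1 UMI after untransduced ACT. Tnfsf11, which encodes RANKL, was at 17.8 and 216 CPM. The inhibitory receptor gene Pdcd1 was at 199 and 648 CPM in these cells. Ifng was detected in 32 of 183 and 30 of 174 CD4 T cells, and 1 cell held 293 of its 441 UMIs after orthogonal ACT. The Il13-positive CD4 T cells had Ifng in 12 of 76 cells and the Il13-negative ones in 20 of 107. Areg was detected in 55 of the 76 and in 22 of the 107 cells, which differed in depth.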
